A study of Mus musculus with 9 samples.

Results

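The 10 genes described here encode transcription regulators that mark or set the state of T cells: Tcf7, Lef1, Id3, Bach2 and Bcl6, which are tied to stem-like, memory or follicular states, Eomes, Tbx21 and Id2, which are tied to effector states, and Tox and Tox2, which are tied to exhaustion. They were chosen by name from knowledge of T cell biology, with earlier results of these data known. They are 10 of the 22136 genes to which the transcripts of the libraries could be assigned. The RNA came from sorted CD45-positive cells, that is, immune cells separated by the leukocyte surface protein CD45, and was sequenced in bulk. The cells came from subcutaneous tumours of the mouse melanoma line YUMM 2.1, grown in immunocompetent C57BL/6J mice. Mice received an antibody against B7-H3, a member of the B7 family of ligands (anti-B7-H3), an antibody against the inhibitory T cell receptor PD1 (anti-PD1) or control IgG, and treatment began when tumours measured 20 to 50 mm3. Each group has 3 libraries, and all mice carried the same tumour line in the same strain. None of these 9 libraries is labelled as coming from mice given both antibodies. Whether replicates come from separate animals is not stated in the labels, so p-values measure only the spread between these samples, which may be technical.

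T cells that meet antigen for a long time, as in tumours, pass from a stem-like state that renews itself to effector and exhausted states. TCF1, the product of Tcf7, and its relative LEF1 are DNA-binding proteins that hold T cells in naive and stem-like states and can recruit beta-catenin through their first residues. ID proteins bind E proteins, a class of DNA-binding factors, and keep them off DNA. ID3 goes with memory precursors and stem-like cells, and ID2 with effector cells, NK cells and innate lymphoid cells. T-BET (Tbx21) and EOMES are related T-box factors of cytotoxic T cells and NK cells. TOX is required for exhausted T cells to form and persist, and TOX2 shares its DNA-binding HMG box. BCL6 is the repressor that directs follicular helper T cells and germinal centre B cells, and BACH2 is a repressor that restrains effector differentiation.

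Tcf7 and Lef1 come in forms that differ at the start of the protein, and the transcripts quantified here list these forms separately. The deposited transcript lengths are mostly coding lengths, so the start of the coding sequence is what tells a long form from a short one. The first 60 coding bases of the 2 forms of Tcf7 (chromosome 11, 52252371 to 52283014, minus strand) and of 2 forms of Lef1 (chromosome 3, 131110471 to 131224356, plus strand) are given with the start codon in capitals. They are from GENCODE M21 transcripts on GRCm38, the start of Tcf7-202 being completed from RefSeq sequence of the same build.
Tcf7-202: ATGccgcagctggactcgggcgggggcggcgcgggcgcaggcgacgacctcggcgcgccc
Tcf7-201: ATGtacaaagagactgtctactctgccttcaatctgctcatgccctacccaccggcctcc
Lef1-201: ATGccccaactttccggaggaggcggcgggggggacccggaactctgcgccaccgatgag
Lef1-203: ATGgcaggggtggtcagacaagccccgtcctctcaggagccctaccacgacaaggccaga

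The coding sequence of Tcf7-201 has 912 bases and lies wholly at the end of the 1260 bases of Tcf7-202, so it lacks the first 348 bases. Tcf7-201 thus has no coding base of its own, and its share is an estimate of the quantifier. GENCODE M21 annotates 909 coding bases without the stop codon for Tcf7-202, so its 1260 bases follow the deposited length. The long form carries the beta-catenin binding region of TCF1, and the short form lacks it. Lef1-203 has 996 coding bases, 198 fewer than the 1194 of Lef1-201, and shares its last 988 bases with it. Eomes (chromosome 9, 118478212 to 118486132, plus strand) has a form, Eomes-202, that lacks 57 bases present in Eomes-201. These 57 bases are shown because the share of the forms differed in a single library; no letter is capitalised.
Eomes-201: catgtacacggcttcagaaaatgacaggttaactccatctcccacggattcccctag

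The other factors are single genes at chromosome 4, 136143497 to 136145755 (Id3), chromosome 4, 32238804 to 32586108 (Bach2), chromosome 16, 23965052 to 23988852 (Bcl6), chromosome 11, 97098071 to 97115331 (Tbx21), chromosome 12, 25093799 to 25097140 (Id2), chromosome 4, 6686353 to 6991557 (Tox) and chromosome 2, 163203125 to 163324170 (Tox2). All 10 are annotated as protein coding. Tox, Tcf7, Lef1, Eomes and Bach2 have annotated antisense neighbours that overlap them, and the library kit does not mark strand, so reads of such a pair cannot be told apart. The gene model Gm37419, which overlaps Bcl6, held 4 to 16 counts in a library.

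The libraries held 14487012 to 31533106 estimated counts, and 3 counts in a library equal 0.0954 to 0.208 CPM (counts divided by the library size and brought to 1 scale). Ptprc, the gene of CD45, lay between 1719 and 2913 CPM in every library, and the summed level of 18 pan-T markers lay between 7339 and 12042 CPM. Summed melanoma markers reached at most 14.1 CPM and fibroblast markers at most 29.7 CPM. IgG 2 and anti-PD1 3 lay away from the other libraries. On the first principal component, with 35.9% of the variance, IgG 2 had a score of 192 and the others had -54.9 to 31.1, and on the next component anti-PD1 3 had -149. Of the 13178 genes tested, IgG 2 had 1896 at 0 counts, anti-PD1 3 had 1248, IgG 3 had 822 and each of the other libraries had 224 to 308.

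All 10 factors were detected in every library, and all passed the filter on low counts. None of them differed between any of the groups in edgeR's quasi-likelihood test at a Benjamini-Hochberg adjusted p of 0.05. The backgrounds for this count of 0 of 10 were 0.85% of the 13178 tested genes for anti-B7-H3 against IgG, 1.74% for anti-PD1 against IgG and 0% for anti-B7-H3 against anti-PD1. At an unadjusted edgeR p of 0.05 the count of factors was 0, 0 and 1 of 10 in these comparisons. Of all tested genes, 8.81%, 10.9% and 3.23% passed that threshold. DESeq2 and limma-voom called none of the 10 factors in any comparison at an adjusted p of 0.05. Both comparisons with IgG share the same IgG libraries. In bulk RNA, fewer cells of a type and less RNA per cell cannot be told apart, so every level here is a share of the RNA of all sorted cells.

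**Figure D1:**
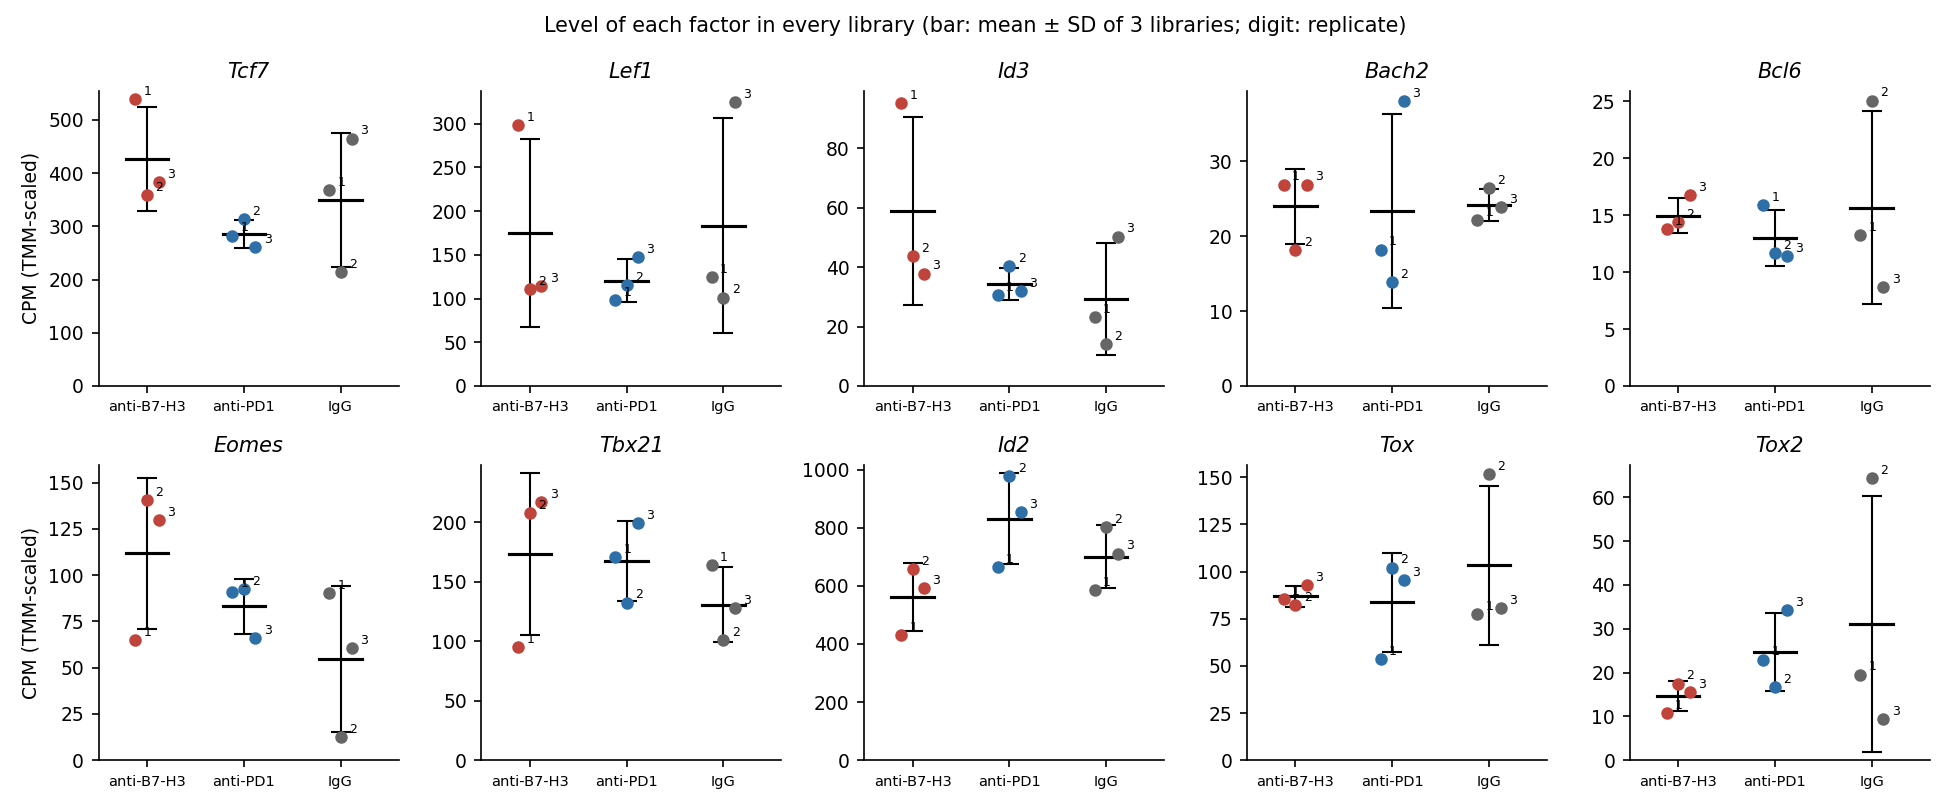
Level of each factor in CPM (vertical axis, TMM-scaled) in the anti-B7-H3, anti-PD1 and IgG libraries. Points are libraries with their replicate number, and bars are the mean ± SD of 3 libraries. The points show the wide spread of the IgG group, with IgG 2 lowest for Eomes at 12.3 CPM and highest for Tox2 at 64.3 CPM.

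Levels per coding length were compared in TPM, the deposited length-corrected abundance summed over the transcripts of each gene. Id2 was the most abundant factor, with 1263 ± 514 TPM in anti-B7-H3, 1733 ± 249 TPM in anti-PD1 and 1550 ± 288 TPM in IgG libraries (mean ± SD, n = 3 each). Tcf7 came next, with 214 ± 16.2 TPM in anti-B7-H3, 149 ± 11.6 TPM in anti-PD1 and 183 ± 54.4 TPM in IgG libraries. Id2 lay above Tcf7 in 9 of 9 libraries, and Tcf7 lay above Id3 in 9 of 9. Further down the order the neighbours overlapped: Id3 was above Lef1 in 5 of 9 libraries, Lef1 above Tbx21 in 6, Tbx21 above Tox in 8, Tox above Eomes in 6, Eomes above Tox2 in 8, Tox2 above Bach2 in 7 and Bach2 above Bcl6 in 6. Mean levels over all libraries were 106 TPM for Id3, 88.2 TPM for Lef1, 57.9 TPM for Tbx21, 33.8 TPM for Tox, 22.5 TPM for Eomes, 12.3 TPM for Tox2, 5.29 TPM for Bach2 and 3.90 TPM for Bcl6. In TPM, Tcf7 varied least between libraries, by 1.92-fold from its lowest to its highest value, while Eomes varied by 9.61-fold and Tox2 by 9.07-fold. In CPM the relative range of Tcf7, from 215 to 539 CPM, was wider than that of Id2, from 432 to 977 CPM.

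Among the factors of stem-like cells, Tcf7 had 539, 359 and 383 CPM in anti-B7-H3 libraries, 283, 314 and 262 CPM in anti-PD1 libraries and 369, 215 and 465 CPM in IgG libraries. Every anti-B7-H3 library lay above every anti-PD1 library, while the IgG libraries spanned most of this range. The log2 fold change was 0.29 ± 0.27 (SE) for anti-B7-H3 against IgG, with a 95% interval of -0.31 to 0.89, and -0.29 for anti-PD1 against IgG, with an interval of -0.89 to 0.31. For anti-B7-H3 against anti-PD1 it was 0.58 ± 0.27 (interval -0.03 to 1.18, edgeR adjusted p = 1.00). Leaving out anti-B7-H3 1 brought this difference to 0.38. The differences from IgG moved with single libraries. That of anti-B7-H3 was 0.087 without anti-B7-H3 1, 0.049 without IgG 2 and 0.55 without IgG 3, and that of anti-PD1 was -0.51 without IgG 2 and -0.030 without IgG 3.

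Lef1 had 299, 111 and 114 CPM in anti-B7-H3 libraries, 98.6, 116 and 147 CPM in anti-PD1 libraries and 124, 101 and 325 CPM in IgG libraries. A single anti-B7-H3 library, anti-B7-H3 1, and a single IgG library, IgG 3, held more than all others, and the remaining libraries overlapped. The fold change of anti-B7-H3 against IgG was -0.07 ± 0.50 on the log2 scale, and without IgG 3 it was 0.63. That of anti-PD1 against IgG was -0.61, and 0.10 without IgG 3. That of anti-B7-H3 against anti-PD1 was 0.53, and -0.10 without anti-B7-H3 1.

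Id3 had 95.3, 43.7 and 37.9 CPM in anti-B7-H3 libraries, 30.7, 40.5 and 31.9 CPM in anti-PD1 libraries and 23.3, 14.1 and 50.3 CPM in IgG libraries. The highest value was again that of anti-B7-H3 1, and IgG 3 lay above the other anti-B7-H3 libraries, so the groups overlapped. Its log2 fold change was 1.01 ± 0.47 for anti-B7-H3 against IgG (interval -0.02 to 2.04, edgeR adjusted p = 0.579), 0.23 for anti-PD1 against IgG and 0.78 for anti-B7-H3 against anti-PD1. Without anti-B7-H3 1 the first of these was 0.48, and without IgG 3 it was 1.65 (edgeR adjusted p = 0.190). The difference of anti-PD1 from IgG was -0.066 without IgG 2 and 0.88 without IgG 3, and that between the antibodies was 0.25 without anti-B7-H3 1. The adjusted p of 0.190 was the smallest for any factor under any of the settings tried.

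Bach2 had 26.9, 18.1 and 26.9 CPM in anti-B7-H3 libraries, 18.2, 13.8 and 38.1 CPM in anti-PD1 libraries and 22.1, 26.4 and 23.9 CPM in IgG libraries. Bcl6 had 13.8, 14.4 and 16.7 CPM in anti-B7-H3 libraries, 15.9, 11.7 and 11.4 CPM in anti-PD1 libraries and 13.3, 25.1 and 8.66 CPM in IgG libraries. Anti-PD1 3 was highest for Bach2 and IgG 2 for Bcl6, and all groups overlapped for both. Log2 fold changes against IgG were -0.01 for anti-B7-H3 and -0.05 for anti-PD1 for Bach2, and -0.06 for anti-B7-H3 and -0.27 for anti-PD1 for Bcl6. BCL6 also acts in germinal centre B cells, and the summed level of 6 germinal centre B markers was between 8.25 and 23.0 CPM in these libraries.

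Among the effector factors, Eomes had 64.9, 141 and 130 CPM in anti-B7-H3 libraries, 91.2, 92.5 and 65.9 CPM in anti-PD1 libraries and 90.5, 12.3 and 60.6 CPM in IgG libraries. IgG 2 was the lowest, and IgG 1 and IgG 3 lay in the range of the treated groups. The log2 fold change was 1.04 ± 0.59 for anti-B7-H3 against IgG (interval -0.29 to 2.36, edgeR adjusted p = 0.699) and 0.61 for anti-PD1 against IgG. Without IgG 2 these were 0.59 and 0.16, and without IgG 1 they were 1.65 and 1.23. The NK cell marker list of 12 genes holds Eomes itself. Without it, the other 11 summed to 2021, 2567 and 2511 CPM in anti-B7-H3 libraries, 1996, 2264 and 1653 CPM in anti-PD1 libraries and 1879, 532 and 1744 CPM in IgG libraries, with 1 of the 11 at 0 in some library. IgG 2 was lowest here as well. The part of NK cell RNA in the Eomes levels was not tested.

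Tbx21 had 95.1, 208 and 217 CPM in anti-B7-H3 libraries, 171, 132 and 199 CPM in anti-PD1 libraries and 164, 101 and 128 CPM in IgG libraries. Anti-B7-H3 1 and IgG 2 were lowest, and the groups overlapped. Its log2 fold change against IgG was 0.41 for anti-B7-H3 and 0.36 for anti-PD1, and between the antibodies it was 0.05. With 1 library left out at a time, the difference of anti-B7-H3 from IgG ran from 0.21 without anti-B7-H3 3 to 0.70 without anti-B7-H3 1, and that of anti-PD1 from 0.21 without anti-PD1 3 to 0.58 without IgG 1. Between the antibodies it turned to -0.15 without anti-B7-H3 3 and was 0.34 without anti-B7-H3 1.

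Id2 had 432, 658 and 594 CPM in anti-B7-H3 libraries, 664, 977 and 854 CPM in anti-PD1 libraries and 586, 802 and 711 CPM in IgG libraries. Every anti-B7-H3 library lay below every anti-PD1 library, though the nearest values were 658 and 664 CPM, and the IgG libraries overlapped with both. The log2 fold change of anti-B7-H3 against anti-PD1 was -0.57 ± 0.23 (interval -1.07 to -0.07, edgeR adjusted p = 1.00), and it was -0.32 for anti-B7-H3 against IgG and 0.25 for anti-PD1 against IgG. Across the settings tried, the difference between the antibodies ran from -0.71 to -0.41. The difference of anti-B7-H3 from IgG was -0.16 without anti-B7-H3 1 and -0.19 without IgG 2, and that of anti-PD1 was 0.12 without anti-PD1 2 and 0.39 without IgG 2 or anti-PD1 1.

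Thus 1 of 10 factors, Tcf7, lay above without overlap in anti-B7-H3 against anti-PD1, where 7.13% of all tested genes did so, and 1 of 10, Id2, lay below, where 6.4% did. Against IgG no factor was without overlap with anti-B7-H3, where 9.96% of tested genes lay above and 5.49% below. With anti-PD1 the count was also 0 of 10, where 9.99% lay above and 6.52% below. The median log2 fold change of the 10 factors was -0.04 for anti-B7-H3 against IgG, -0.16 for anti-PD1 against IgG and 0.13 for anti-B7-H3 against anti-PD1. Over all tested genes these medians were 0.02, -0.04 and 0.04.

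Of the exhaustion factors, Tox had 85.3, 82.4 and 92.8 CPM in anti-B7-H3 libraries, 53.8, 102 and 95.3 CPM in anti-PD1 libraries and 77.4, 152 and 80.7 CPM in IgG libraries. Tox2 had 10.8, 17.5 and 15.6 CPM in anti-B7-H3 libraries, 22.9, 16.7 and 34.3 CPM in anti-PD1 libraries and 19.6, 64.3 and 9.34 CPM in IgG libraries. IgG 2 held the highest level of both, and the groups overlapped. The log2 fold change of Tox2 was -1.08 ± 0.59 for anti-B7-H3 against IgG (interval -2.40 to 0.23, edgeR adjusted p = 0.683), and without IgG 2 it was 0.036. It was -0.33 for anti-PD1 against IgG, 0.79 without IgG 2, and -0.75 for anti-B7-H3 against anti-PD1, or -0.44 without anti-PD1 3. For Tox the log2 fold change was -0.25 for anti-B7-H3 against IgG and -0.30 for anti-PD1 against IgG, and without IgG 2 these were 0.15 and 0.11. Between the antibodies Tox differed by 0.05, with an interval of -0.62 to 0.73.

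**Figure D2:**
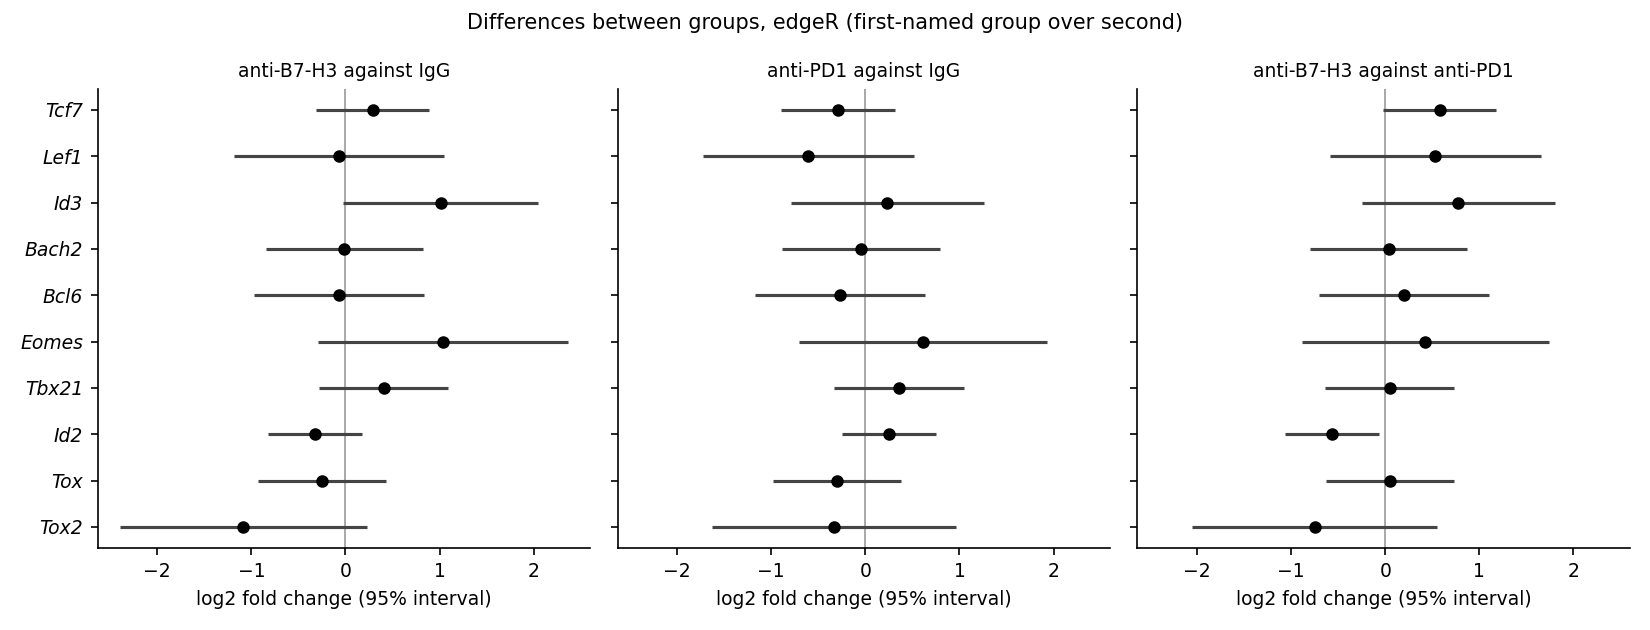
Log2 fold change of each factor in the 3 comparisons (horizontal axis, first-named group over second), from edgeR. Points are estimates and lines their 95% intervals. All intervals include 0 except that of Id2 for anti-B7-H3 against anti-PD1, whose adjusted p was 1.00.

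Some factors varied together between libraries. Correlations of log2 CPM over the 9 libraries are given as description. The libraries share their groups, their depth differs, and 45 pairs of factors were computed. Tcf7 and Tox2 ran opposite to each other, with Pearson's r of -0.93 and Spearman's rho of -0.92. The r was -0.91 without IgG 2, -0.96 within groups and -0.88 without the 2 libraries farthest from the median of Tox2. Tcf7 and Id3 ran together with r of 0.84 and rho of 0.73. Their r was 0.74 without IgG 2, 0.93 within groups and 0.46 without the 2 libraries farthest from the median of Tcf7. Leaving out the extremes of 1 factor narrows its range, which can itself lower r, so the last value cannot decide how general the relation is. Tcf7 and Lef1 had r of 0.75 and rho of 0.62, and Eomes and Tbx21 had r of 0.68 and rho of 0.78. For Tox and Eomes, r was -0.68 and rho -0.18 over all libraries, and r was -0.01 without IgG 2, so that relation rests on IgG 2.

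The libraries that were high in Tcf7, Lef1 and Id3 were also high in markers of CD8 T cells. The summed level of both CD8 genes was 796, 383 and 375 CPM in anti-B7-H3 libraries, 193, 322 and 345 CPM in anti-PD1 libraries and 463, 291 and 823 CPM in IgG libraries. Anti-B7-H3 1 and IgG 3 were highest here, as they were for Lef1. The 8 regulatory T cell markers summed to 882, 2125 and 2105 CPM in anti-B7-H3 libraries, 3287, 2725 and 3967 CPM in anti-PD1 libraries and 2464, 3838 and 2301 CPM in IgG libraries. Every anti-B7-H3 library lay below every other library, and anti-B7-H3 1 was lowest. The median log2 fold change of these markers was -0.87 for anti-B7-H3 against IgG and -1.03 against anti-PD1, and 0 of 8 passed the test in either. Summed B cell markers were also highest in anti-B7-H3 1, at 651 CPM against 50.8 to 203 CPM elsewhere, with 7 of 14 at 0 in some library. The part of the mix of cell types in the levels of Tcf7, Lef1 and Id3 was not tested.

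**Figure D3:**
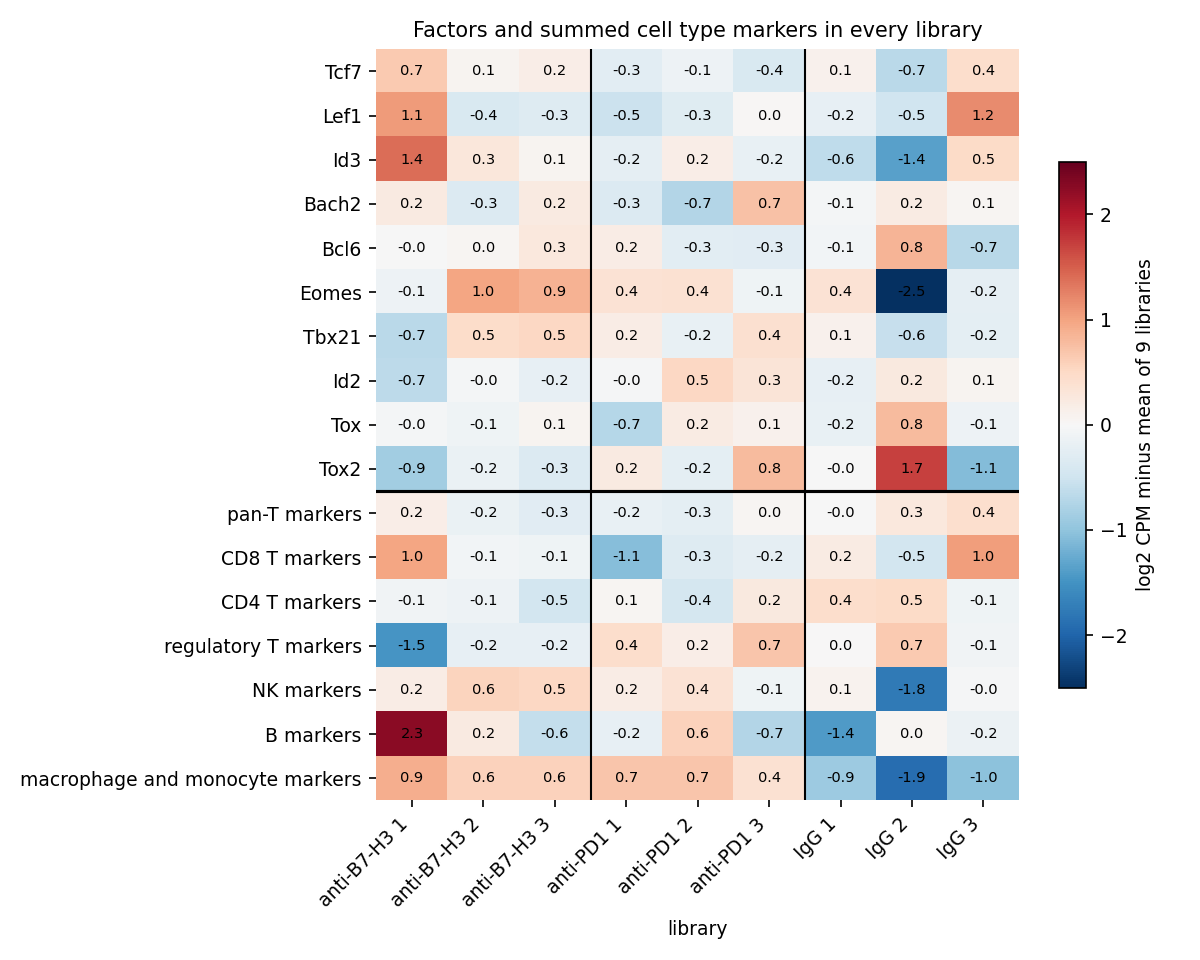
Log2 CPM of each factor and of the summed cell type markers in every library (columns, grouped as anti-B7-H3, anti-PD1 and IgG), minus the mean of the 9 libraries. Red is above and blue below that mean. Anti-B7-H3 1 and IgG 3 share high Tcf7, Lef1, Id3 and CD8 markers, and IgG 2 combines low Eomes and NK markers (Eomes is 1 of the 12) with high Tox, Tox2 and Bcl6.

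The genes most like each factor over the 9 libraries were looked up among 9650 tested genes with a mean of at least 5 CPM, by Pearson's r of log2 CPM. For Tcf7 they were Mri1 (r 0.99), Endog (0.97) and Grwd1 (0.96). For Lef1 they were Rpl7a, Eif3k and Rpl10a, each at 0.99. For Id3 the nearest gene was Nle1 (0.98), for Eomes Sapcd2 (0.99), for Tbx21 Mapk1ip1l (0.97), for Id2 Gpr19 (0.96), for Tox Plekhg2 (0.93), for Tox2 Rrm2b (0.98), for Bcl6 Ggta1 (0.97) and for Bach2 Ccnq (0.93). With so many genes and few libraries, such values are picked as the highest of many and describe only this set of libraries.

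Because the summed RNA of 18 pan-T marker genes differed between libraries, each factor was also expressed per 1000 counts of these genes in the same library. On this scale Tcf7 was 53.4, 44.7 and 52.2 in anti-B7-H3 libraries, 35.8, 41.6 and 28.3 in anti-PD1 libraries and 41.4, 19.9 and 38.6 in IgG libraries. Every anti-B7-H3 library lay above all libraries of both other groups. The differences in mean log2 value were 0.66 against IgG and 0.52 against anti-PD1, each with an exact two-sided permutation p of 0.1, the smallest that 3 against 3 libraries can give, so this design cannot reach 0.05. Without IgG 2 the difference from IgG was 0.32.

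Id3 per 1000 pan-T counts was 9.43, 5.44 and 5.16 in anti-B7-H3 libraries, 3.89, 5.37 and 3.45 in anti-PD1 libraries and 2.61, 1.30 and 4.18 in IgG libraries. The anti-B7-H3 and IgG groups did not overlap, with a difference of 1.41 in log2 (exact permutation p = 0.1) that was 0.96 without IgG 2. Id2 was 42.7, 81.8 and 80.9 in anti-B7-H3 libraries, 84.1, 130 and 92.2 in anti-PD1 libraries and 65.9, 74.5 and 59.0 in IgG libraries. The anti-PD1 libraries lay above both other groups, by 0.60 in log2 over IgG, and the anti-B7-H3 group differed from them by -0.61 (exact permutation p = 0.1 each). Without anti-B7-H3 1 this last difference was -0.30. Tox2 differed by -0.76 between anti-B7-H3 and anti-PD1 without overlap (exact permutation p = 0.1), and by -0.42 without anti-B7-H3 1.

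These were 6 of 30 comparisons on this scale, none of which could pass a correction for 30 tests. With pan-T counts as the yardstick the median of all tested genes shifts by 0.32 for anti-B7-H3 against IgG, 0.35 for anti-PD1 against IgG and -0.03 between the antibodies, so the differences from IgG are to be read against that shift. Of all tested genes, 16.9% lay above IgG without overlap with anti-B7-H3 (2 of 10 factors) and 0.903% below (0 of 10). With anti-PD1 18.4% lay above IgG (1 of 10) and 1.08% below (0 of 10). In anti-B7-H3 against anti-PD1 4.19% lay above (1 of 10) and 5.43% below (2 of 10). The pan-T markers are themselves part of the RNA that differs between groups, with a median log2 fold change of -0.28 for anti-B7-H3 and -0.34 for anti-PD1 against IgG, and 0 of 18 passed the test in either.

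**Figure D4:**
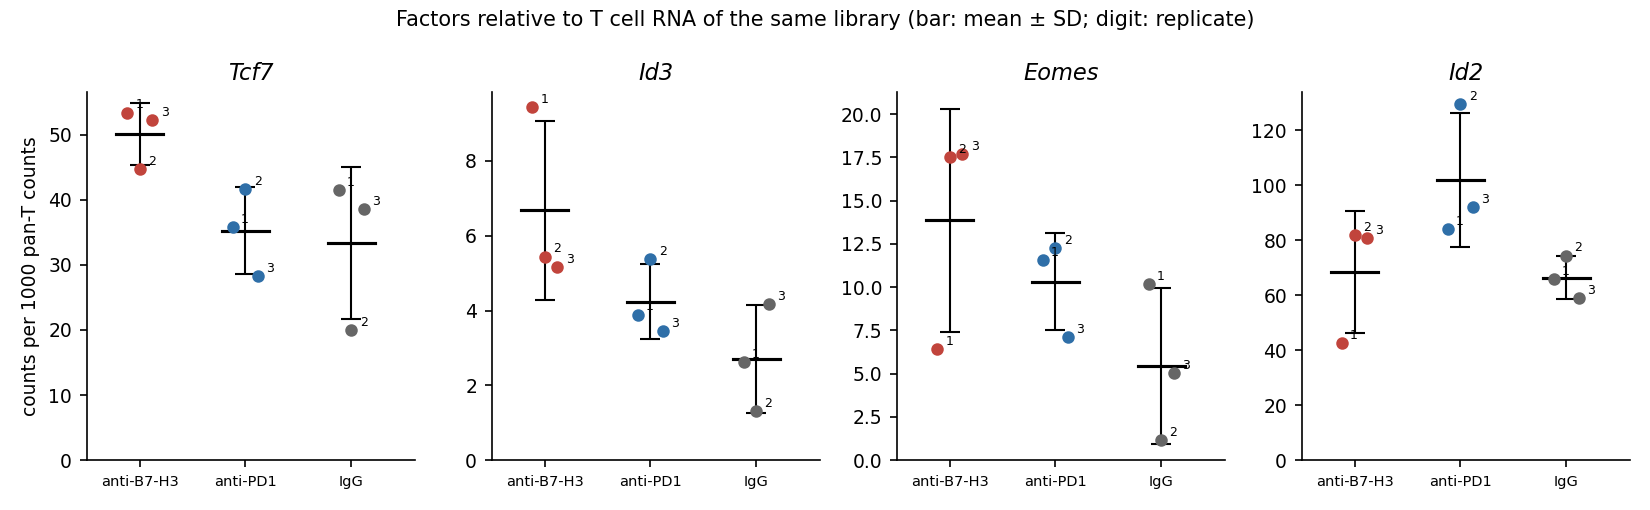
Tcf7, Id3, Eomes and Id2 in counts per 1000 pan-T marker counts of the same library (vertical axis) in the anti-B7-H3, anti-PD1 and IgG groups. Points are libraries with their replicate number, and bars are the mean ± SD of 3 libraries. The Tcf7 values of anti-B7-H3 libraries, from 44.7 to 53.4, lie above all others.

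Ratios between factors, of opposite states (Id3 over Id2, Tcf7 over Tox) or of related factors of 1 state (Eomes over Tbx21, Tox2 over Tox, Lef1 over Tcf7, Bach2 over Bcl6), were taken from TPM within a library and do not depend on library size. Id3 over Id2 was 0.273, 0.0853 and 0.0827 in anti-B7-H3 libraries, 0.0598, 0.0531 and 0.0473 in anti-PD1 libraries and 0.0499, 0.0227 and 0.0904 in IgG libraries. The anti-B7-H3 libraries lay above all anti-PD1 libraries, by 1.23 in log2 (exact permutation p = 0.1), or 0.66 without anti-B7-H3 1, and they overlapped with IgG. Eomes over Tbx21 was 0.510, 0.490 and 0.435 in anti-B7-H3 libraries, 0.391, 0.515 and 0.268 in anti-PD1 libraries and 0.412, 0.0964 and 0.344 in IgG libraries. Here the anti-B7-H3 libraries lay above all IgG libraries, by 1.00 in log2 (exact permutation p = 0.1), or 0.34 without IgG 2. The remaining 16 of 18 comparisons over 6 ratios overlapped between groups. At 3 against 3 libraries, groups that do not differ lie without overlap in a share of 0.1 of comparisons. The 2 of 18 seen here is near that share.

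The balance of long and short forms was compared as shares of the TPM of each gene. The beta-catenin-binding form Tcf7-202 made up 78.3%, 66.8% and 63.2% of Tcf7 TPM in anti-B7-H3 libraries, 59.6%, 64.8% and 72.6% in anti-PD1 libraries and 84.0%, 84.0% and 67.0% in IgG libraries. The long form was thus the larger share in every library, and the groups overlapped. Its mean share differed by -8.86 percentage points for anti-B7-H3 and -12.6 for anti-PD1 against IgG (exact permutation p = 0.2 for each). With 1 library left out these ran from -14.5 without IgG 3 to -5.75 without anti-B7-H3 3, and from -18.3 without IgG 3 to -9.60 without anti-PD1 1.

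Lef1-203, the form with the inner start, made up 72.0%, 65.1% and 71.0% of Lef1 TPM in anti-B7-H3 libraries, 62.5%, 62.2% and 54.1% in anti-PD1 libraries and 63.8%, 22.4% and 67.0% in IgG libraries. It was the major form in every library except IgG 2, where Lef1-201 held 52.7%. The anti-B7-H3 libraries lay above the anti-PD1 libraries, with means of 69.4 ± 3.73% and 59.6 ± 4.77% (SD, n = 3 each, exact permutation p = 0.1), 1 of 18 comparisons of transcript shares without overlap. This count is below the share of 0.1 that groups without a difference give at 3 against 3 libraries. For Eomes, the form Eomes-201 held 68.6% to 95.6% in every library but IgG 2, where it was listed at 0 and Eomes-202, without the 57 bases shown above, held 87.8%. Transcripts of a gene share most of their reads, so these shares are estimates of the quantifier, and IgG 2 had 198 counts of Eomes against 875 to 4206 in the other libraries.

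**Figure D5:**
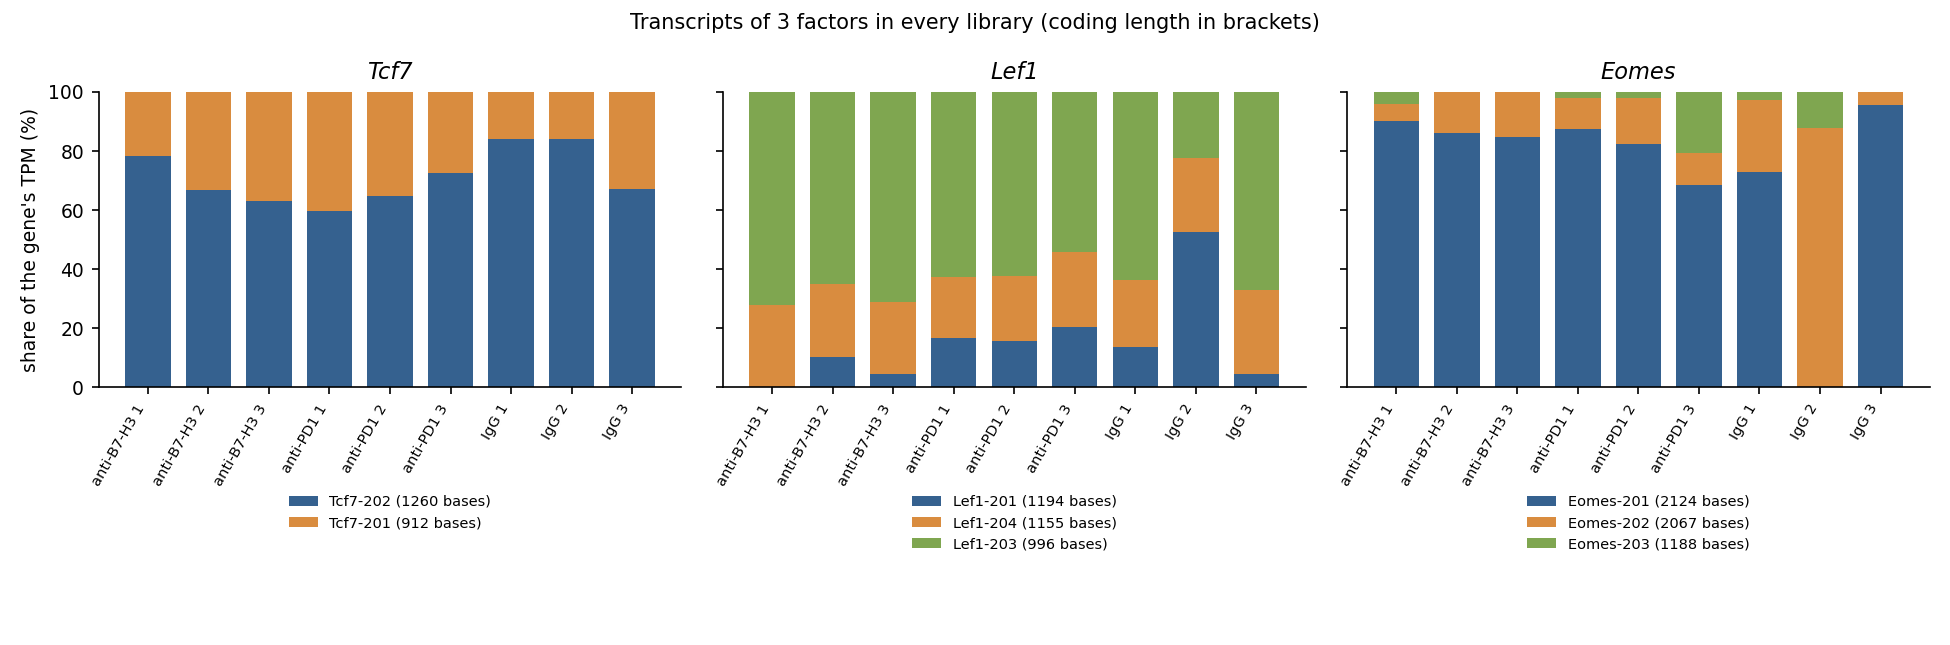
Share of each transcript in the TPM of Tcf7, Lef1 and Eomes (vertical axis, percent) in every library, with anti-B7-H3, anti-PD1 and IgG libraries from left to right and coding lengths in the legend. Bars add to 100%. Tcf7-202 is the larger part everywhere, and IgG 2 differs from the others in Lef1 and Eomes.

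Genes that go with these factors were examined in lists chosen by name, with earlier results of these data known. Of 15 genes of naive and stem-like T cells, 0 were higher and 1 was lower with anti-B7-H3 against IgG, with a median log2 fold change of 0.17. The gene that fell was Il7r, the receptor of interleukin 7, with 152, 118 and 147 CPM in anti-B7-H3 libraries and 367, 509 and 264 CPM in IgG libraries (log2 -1.45 ± 0.27, edgeR adjusted p = 0.0302). This call was lost in 11 of 21 other settings, among them those without IgG 1 or 2, without any 1 of the anti-B7-H3 libraries or without anti-PD1 2 or 3, and the largest edgeR adjusted p was 0.189. Of these 15 genes 0 passed with anti-PD1 against IgG, where Il7r differed by -0.80 (edgeR adjusted p = 0.235), and 0 in anti-B7-H3 against anti-PD1. Ccr7, a homing receptor of naive T cells, differed by 0.84 with anti-B7-H3 and Slamf6, a surface marker of stem-like T cells, by -0.60, without passing. Ccr7 had 494, 190 and 245 CPM in anti-B7-H3 libraries and 127, 119 and 272 CPM in IgG libraries. Its highest value was that of anti-B7-H3 1, and IgG 3 lay above the other anti-B7-H3 libraries.

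Of 17 effector genes, 0 passed in any comparison by edgeR. The median log2 fold change was 0.14 with anti-B7-H3 against IgG, 0.03 with anti-PD1 against IgG and 0.05 between the antibodies. The fold change was above 0 for 11 of the 17 genes with anti-B7-H3 against IgG, for 9 with anti-PD1 against IgG and for 9 between the antibodies. Ifng, the interferon of T and NK cells, differed by 0.87 for anti-B7-H3 and 0.93 for anti-PD1 against IgG (edgeR adjusted p = 0.217 and 0.101). Prf1, which encodes perforin, differed by 1.12 with anti-B7-H3 (edgeR adjusted p = 0.539). Its levels were 235, 428 and 423 CPM in anti-B7-H3 libraries and 247, 62.0 and 189 CPM in IgG libraries. IgG 2 was also lowest in NK cell markers, whose part in the Prf1 level was not tested. Cxcr3, named after its values were seen, went the other way. It had 119, 267 and 200 CPM in anti-B7-H3, 162, 181 and 258 CPM in anti-PD1 and 300, 299 and 301 CPM in IgG libraries.

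Of 12 genes of exhausted T cells, 0 passed in any comparison by edgeR, with medians of -0.31 for anti-B7-H3 against IgG, 0.27 for anti-PD1 against IgG and -0.51 between the antibodies. With anti-B7-H3 against IgG the log2 fold change was above 0 for only 3 of the 12, among them Cd244a and Havcr2. It was above 0 for 7 with anti-PD1 against IgG and for 3 between the antibodies. Cd244a, a receptor of NK and exhausted CD8 T cells, differed by 1.24 with anti-B7-H3 against IgG (edgeR adjusted p = 0.268). Havcr2, which encodes TIM-3, differed by 1.02 for anti-B7-H3 and 1.20 for anti-PD1 against IgG (edgeR adjusted p = 0.510 and 0.290). TIM-3 is also made by macrophages, whose 14 markers summed to 3803, 2985 and 3007 CPM in anti-B7-H3 libraries, 3281, 3262 and 2627 CPM in anti-PD1 libraries and 1069, 537 and 996 CPM in IgG libraries, with 1 marker at 0 in some library. The part of macrophages in the Havcr2 level was not tested.

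Of 32 other transcription factors of T cells, 0 passed with anti-B7-H3 against IgG, 2 were higher with anti-PD1 against IgG and 0 passed between the antibodies. The factor with the largest fold of these was Irf4, which is induced by antigen receptor signals in T and B cells. Irf4 had 38.7, 31.8 and 37.5 CPM in anti-PD1 libraries, against 10.3, 12.5 and 3.84 CPM in IgG libraries (log2 2.02 ± 0.40, edgeR adjusted p = 0.0307). Bhlhe40, a regulator of cytokine production, had 754, 620 and 865 CPM in anti-PD1 libraries, against 368, 294 and 236 CPM in IgG libraries (log2 1.32 ± 0.29, edgeR adjusted p = 0.0498).

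In both genes every anti-PD1 library lay above every IgG library. The macrophage markers summed above lay between 2627 and 3281 CPM in anti-PD1 libraries and between 537 and 1069 CPM in IgG libraries. A list of 16 immediate-early genes, which cell activation and tissue handling induce, summed to 17154, 14774 and 17553 CPM in anti-PD1 libraries and 6731, 7332 and 8161 CPM in IgG libraries. In it 10 of 16 passed as higher and 0 as lower, none of its genes was at 0 in any library, and the part of either list in the Bhlhe40 level was not tested. The call of Irf4 was lost in 8 of 21 other settings, among them those without any 1 of the anti-PD1 libraries, without IgG 1 or without anti-B7-H3 2 or 3 (largest edgeR adjusted p = 0.116). That of Bhlhe40 was lost in 13, among them those without any 1 of the anti-PD1 or IgG libraries or without anti-B7-H3 2 or 3 (largest edgeR adjusted p = 0.251). Irf4 is also a marker of plasma cells, whose 7 markers summed to 1442, 1080 and 1156 CPM in anti-PD1 libraries and 402, 505 and 159 CPM in IgG libraries, with 3 of the 7 (Irf4 itself, Jchain and Xbp1) higher and 0 lower. The part of plasma cells in the Irf4 level was not tested.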

How the data were processed

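Per the labels' protocols, RNA of at least 500 ng and an integrity number of at least 7.0 went through SMART-Seq v4 synthesis, ribosomal RNA depletion and Nextera XT, which do not mark strand. Per the submitters' processing notes, the build was GRCm38 and FastQC 0.11.8 was used, while the quantifier is not given in the sources used here. Per the file headers, each deposited table gives a length, an effective length, TPM and an estimated count for 58083 transcripts. Of the deposited lengths, 87.3% are multiples of 3, and 74% equal the M21 coding sequence with its stop codon, so most but not all are coding lengths. Transcripts were matched to GENCODE M21 (57409 matched, 57105 with the same version, 674 unmatched and unused), and estimated counts were summed over 22136 genes and rounded. No column belongs to other samples.

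A single fit of the 9 libraries was made with edgeR 4.0.16 under R 4.3.3 (filterByExpr, 13178 genes, TMM, robust quasi-likelihood, no covariate), with Benjamini-Hochberg adjustment over all tested genes at 0.05. CPM uses TMM-scaled library sizes, and log2 CPM a prior count of 2. Values per pan-T count, TPM ratios and transcript shares were compared by exact two-sided permutation tests. The fit was tested on simulated data. Alternatives were DESeq2 1.42.0, limma 3.58.1 voom, other scalings and filters, the replicate block and each library left out. Leaving out IgG 2 and anti-PD1 3 together, and trying the settings on genes of the lists, were added after seeing the data.

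Named genes were all 10 factors, up to 4 genes of a list with the smallest p, and the nearest genes by likeness. The factors and lists were chosen with earlier results of these data known. Reads were amplified without molecular identifiers, so floors of 3 counts cover counting error only.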

Additional observations from a re-analysis of the deposited data

How the results depend on the processing

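None of the 10 factors passed an adjusted p of 0.05 in any comparison under the 21 other settings, where the smallest edgeR, DESeq2 or limma adjusted p was 0.190 for anti-B7-H3 against IgG, 0.423 for anti-PD1 against IgG and 0.653 between the antibodies. The direction was kept in 191 of 210, 196 of 210 and 200 of 210 values. The count of genes past the test was 396, 652 and 15 with DESeq2 (112, 229 and 0 by edgeR), 2 between the antibodies with limma-voom, and 44 and 136 against IgG with only the 6 libraries compared. Leaving out 1 library gave 59 to 144 genes for anti-B7-H3 against IgG, 113 to 262 for anti-PD1 against IgG and 0 to 1 between the antibodies. The first was 64, 60 or 59 without anti-B7-H3 1, 2 or 3 and 73 without anti-PD1 2, and the next was 113 without anti-PD1 1 and 116 without anti-PD1 2. The 1 gene came without anti-B7-H3 3. Without IgG 2 and anti-PD1 3 together the counts were 143, 234 and 0, with 0 factors. Same-numbered libraries did not deviate together (r from -0.12 to 0.16), so no pairing by number was seen, though such values cannot exclude one. With the replicate block the counts were 64, 127 and 0. In that setting the log2 fold changes of Lef1 and Bcl6 turned to 0.015 and 0.028 with anti-B7-H3 against IgG.

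Directions that turned were, for anti-B7-H3 against IgG, Bach2 at 0.0040 with upper-quartile factors, 0.0080 with length-scaled counts and 0.0089 without mitochondrial, ribosomal, haemoglobin and receptor genes, and Bcl6 at 0.24 with limma-voom. For anti-PD1 against IgG, limma-voom gave Tox2 at 0.16 and Bcl6 at 0.067. With library sizes set to pan-T counts, which shifts the median of all genes, anti-B7-H3 against IgG gave Tox 0.088, Lef1 0.23, Id2 0.043, Bcl6 0.26 and Bach2 0.31, and anti-PD1 against IgG gave Tox 0.057, Tcf7 0.081, Bcl6 0.081 and Bach2 0.25. Leaving out 1 library at a time gave, for anti-B7-H3 against IgG, Lef1 -0.71 to 0.63, Bach2 -0.11 to 0.16, Tox -0.40 to 0.15, Tox2 -1.52 to 0.036 and Bcl6 -0.36 to 0.46. For anti-PD1 against IgG it gave Tox -0.47 to 0.11, Tox2 -0.77 to 0.79, Id3 -0.066 to 0.88, Bcl6 -0.56 to 0.27, Bach2 -0.59 to 0.22 and Lef1 -0.86 to 0.10. Between the antibodies it gave Lef1 -0.10 to 0.76, Bach2 -0.23 to 0.58, Tbx21 -0.15 to 0.34 and Tox -0.19 to 0.22. The cause was not tested. Leaving out 1 library turned the direction in 8 of 18 comparisons of transcript shares, 9 of 18 of ratios and 15 of 30 per pan-T count. Comparisons without overlap cannot turn when a library is left out, so their kept direction is no test of them. Without IgG 2 and without IgG 3, Tcf7 over Tox for anti-B7-H3 against IgG was -0.073 and 0.99, Tox2 per pan-T count was 0.38 and -1.09, and the Lef1-203 share for anti-PD1 against IgG was -5.79 and 16.5 percentage points. With the Cd3 genes and Cd247 as denominator, 2 values near 0 turned, Lef1 for anti-PD1 against IgG at 0.0088 and Id2 for anti-B7-H3 against IgG at 0.019.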

Other observations

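Of 19 relatives and partners of the factors, 16 were tested and 0 passed in any comparison by edgeR. Id1, a further inhibitor of E proteins, had 3.56, 5.15 and 3.61 CPM in anti-B7-H3 libraries, 6.42, 11.7 and 2.63 CPM in anti-PD1 libraries and 0.551, 1.73 and 1.45 CPM in IgG libraries, where every antibody library lay above every IgG library. Its log2 fold change was 1.72 for anti-B7-H3 and 2.47 for anti-PD1 against IgG (edgeR adjusted p = 0.587 and 0.256). Tcf7l2, the relative of Tcf7 that is typical of non-lymphoid cells, had 9.13, 5.66 and 8.88 CPM in anti-B7-H3 libraries, 13.2, 9.28 and 3.34 CPM in anti-PD1 libraries and 1.80, 0 and 2.08 CPM in IgG libraries. It also lay above IgG in every antibody library without passing the test (edgeR adjusted p = 0.535 and 0.401). The summed macrophage markers given above were also higher in every antibody library than in any IgG library, and their part in these levels was not tested.

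Tox3 and Id4, the relatives of Tox and of the ID genes that were near 0, were named after their values were seen: Tox3 reached at most 0.148 CPM and Id4 at most 0.259 CPM. Ctnnb1, which encodes beta-catenin and was also named after its values were seen, lay between 78.9 and 171 CPM in all libraries.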
